A study of Mus musculus with 4 samples.

Results

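Cells with high levels of *Sparcl1*, *Tcap*, *Sphkap*, *Rbp4*, *Ccdc3* and *Nudt4* (the A genes) were examined in carotid arteries after ligation. The members were chosen by 3 scores, each the mean of log2(value + 1) over its genes and expressed as a z over the 10359 cells of both ligation libraries. Score A used the 6 A genes, score B used *Igfbp2*, *Filip1l*, *Col14a1*, *Actg2*, *Ankrd1*, *Postn* and *Ccn5*, and score C used *Gdf10*, *Ecrg4*, *Cst3*, *Crispld1*, *Comp*, *Cp*, *Sfrp2* and *Abi3bp*. A member had A as its highest score and an A z of at least 0.5. This gave 2980 members of 10359 ligation cells, 28.8% (exact Clopper-Pearson 95% interval, 27.9 to 29.6%), among 12790 cells in the whole series. They were compared with 2631 B-highest cells and 2082 C-highest cells, which had B or C as the highest score and the same limit on its z. The other 2666 ligation cells belonged to none of the 3 groups.

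The ligation experiment examined vascular smooth muscle cells (VSMCs) of male C57Bl/6 mice, given as C57Bl6/J in the study's methods. The left common carotid artery was tied off at an age of 4 to 5 months, and the cells were taken 28 days later. *Trf2 T188A* mice carry the *Sm22a-Trf2 T188A* transgene, whose minimal form of the *Sm22a* promoter limits the mutant of the telomere protein TRF2 to smooth muscle of arteries, and the controls were wild-type littermates. Plaque libraries came from male C57Bl/6 *Myh11-CreERt2/Confetti/ApoE-/-* mice with or without the same transgene. Tamoxifen from 6 weeks of age labelled their cells expressing *Myh11* with the Confetti reporter. These mice then ate a high fat diet for 14 weeks. Their plaques came from the aortic root and arch and the carotid arteries. Each of the 4 libraries stands for 1 genotype of 1 experiment, and the number of mice behind it is not given in the sources used here.

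The ligated vessels were stripped of adventitia and trimmed to the remodelled stretch, so the cells do not cover the whole artery. The measurement was droplet single-cell RNA-seq, which counts RNA molecules of each cell by unique molecular identifiers (UMIs). The deposited values were UMIs of a gene per 10000 UMIs of its cell, on a linear scale, and they returned whole UMI counts. In the control library, 47713453 UMIs came from 4967 cells, and the median cell had 8631 UMIs of 2900 genes. The *Trf2 T188A* library was deeper, with 67426588 UMIs from 5392 cells and a median cell of 11153 UMIs and 3360 genes. Detected genes per cell were at least 1206 and 1203, and mitochondrial shares were at most 6.00% in both libraries. The ligation libraries shared 10 cell barcodes, and the plaque libraries shared 0. With 1 library per genotype, no test across mice was possible, genotype and library cannot be told apart, and cells were not treated as replicates. All 95% intervals cover counting error only.

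VSMCs of a healthy artery contract through smooth muscle actin and myosin, and they lay down the elastin and collagen of the vessel wall during growth and repair. After injury they can lose contractile proteins, divide and secrete matrix, a process known as phenotypic switching. TRF2 protects chromosome ends, and loss of its function leads to telomere damage and senescence.

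In what follows, a pair of values gives control first and *Trf2 T188A* second, and a level is the mean number of UMIs per 10000 over the cells of a group. Members made up 1215 of 4967 control cells, 24.5% (23.3 to 25.7%), and 1765 of 5392 *Trf2 T188A* cells, 32.7% (31.5 to 34.0%). The share was higher in the *Trf2 T188A* library, while B-highest cells were 26.5% and 24.4% and C-highest cells 20.8% and 19.5% of the libraries. *Trf2 T188A* members were also deeper, the median member having 11691 UMIs of 3555 genes there and 8942 UMIs of 3027 genes in control. When all cells were thinned to 5000 UMIs and members chosen again, the share was 23.7% in control and 30.7% in *Trf2 T188A* cells. Whether the difference exceeds that between mice was not tested.

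The score is a continuum, and the members are one range of it. The member nearest the limit had an A z of 0.500073, and the nearest A-highest cell outside it had an A z of 0.499921. Within 0.25 above the limit lay 504 members (16.9%), and 412 A-highest cells lay within 0.25 below it. *Sparcl1* had a level of 6.42 and 7.26 in members just above the limit and of 4.68 and 5.69 in A-highest cells just below. *Acta2* differed little across the limit, at 167 and 178 above and 173 and 173 below. The scores of the members were not exclusive: 126 members (4.23%) had a B z of at least 0.5 as well, and 223 (7.48%) had such a C z. Both other scores were below 0 in 1638 members (55.0%).

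Genes of the other scores were also examined as medians over cells. The median over members was 0 for *Igfbp2*, *Col14a1*, *Ankrd1* and *Ccn5* of score B and for *Gdf10*, *Ecrg4*, *Comp* and *Cp* of score C. It was 0 as well for *Comp* in C-highest cells of both libraries, for *Ecrg4* in control C-highest cells and for *Ccn5* in control B-highest cells. The median over members was 6.99 and 6.43 for *Filip1l*, against 18.0 and 19.8 in B-highest cells, 5.67 and 6.60 for *Postn*, against 13.0 and 14.7, and 1.22 and 1.32 for *Actg2*, against 5.95 and 4.14. For *Cst3*, which encodes a secreted protease inhibitor, it was 55.4 and 49.3 in members and 121 and 117 in C-highest cells. *Sfrp2* had 0.768 and 1.05 in members and 8.75 and 11.2 in C-highest cells, *Abi3bp* had 1.40 and 1.15 against 3.71 and 3.11, and *Crispld1* had 0.787 and 0.788 in members. Over the members, the B genes had a median log2 ratio of −1.48 to B-highest cells and the C genes one of −1.60 to C-highest cells, which the scores require. Against the group they do not define, the B genes had a median of −0.12 and the C genes one of 0.13. Both lists were split. The B genes ranged from −0.64 to 1.22 against C-highest cells, with *Filip1l*, *Actg2* and *Postn* above 0. The C genes ranged from −1.30 to 1.27 against B-highest cells.

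**Figure D1:**
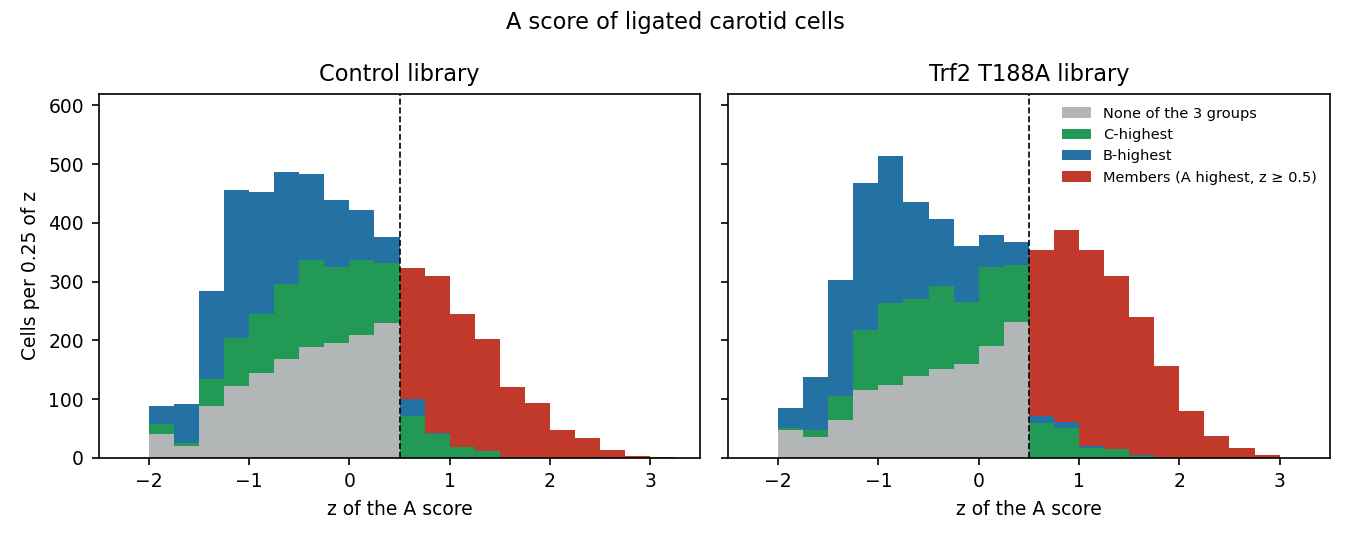
Number of ligation cells by z of the A score (bins of 0.25), stacked by group, in the control library (left) and the *Trf2 T188A* library (right). The dashed line marks the limit of 0.5. The histograms pass through the limit without a gap, and 1215 control and 1765 *Trf2 T188A* cells are members.

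Each A gene is given with its chromosome and position in the GRCm38 mouse genome. All 6 were used to choose the members, so their levels are a description. *Sparcl1* (chromosome 5, 104079111 to 104113733) encodes a secreted glycoprotein related to SPARC. Its level was 9.67 and 10.0 in members, 1.90 and 1.66 in B-highest cells and 0.384 and 0.477 in C-highest cells. Of the A genes it separated members from C-highest cells by the widest margin, with a log2 ratio of 2.92 (95% interval, 2.89 to 2.95) averaged over both libraries.

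*Tcap* (chromosome 11, 98383811 to 98384953) encodes telethonin, which caps titin at the Z-disc of striated muscle. Members had a level of 4.38 and 4.78, B-highest cells 0.615 and 0.404 and C-highest cells 2.14 and 2.08. *Sphkap* (chromosome 1, 83254139 to 83408200) encodes an anchoring protein for cAMP-dependent protein kinase. It was nearly absent from B-highest cells, with levels of 0.00958 and 0.0596, against 1.58 and 1.21 in members and 0.525 and 0.348 in C-highest cells.

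*Rbp4* (chromosome 19, 38116629 to 38125281) encodes the carrier of retinol in plasma. This gene separated members from B-highest cells and hardly from C-highest cells: its level was 2.42 and 2.55 in members, 0.101 and 0.254 in B-highest and 1.90 and 2.13 in C-highest cells. *Ccdc3* (chromosome 2, 5137776 to 5230878), for a secreted coiled-coil protein, had levels of 2.40 and 2.38 in members, 0.802 and 0.757 in B-highest and 0.916 and 0.931 in C-highest cells. *Nudt4* (chromosome 10, 95547007 to 95564146) encodes a nudix hydrolase of diphosphoinositol polyphosphates and was detected broadly. It reached 11.5 and 10.4 in members, 4.87 and 3.86 in B-highest and 8.41 and 7.86 in C-highest cells.

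**Figure D2:**
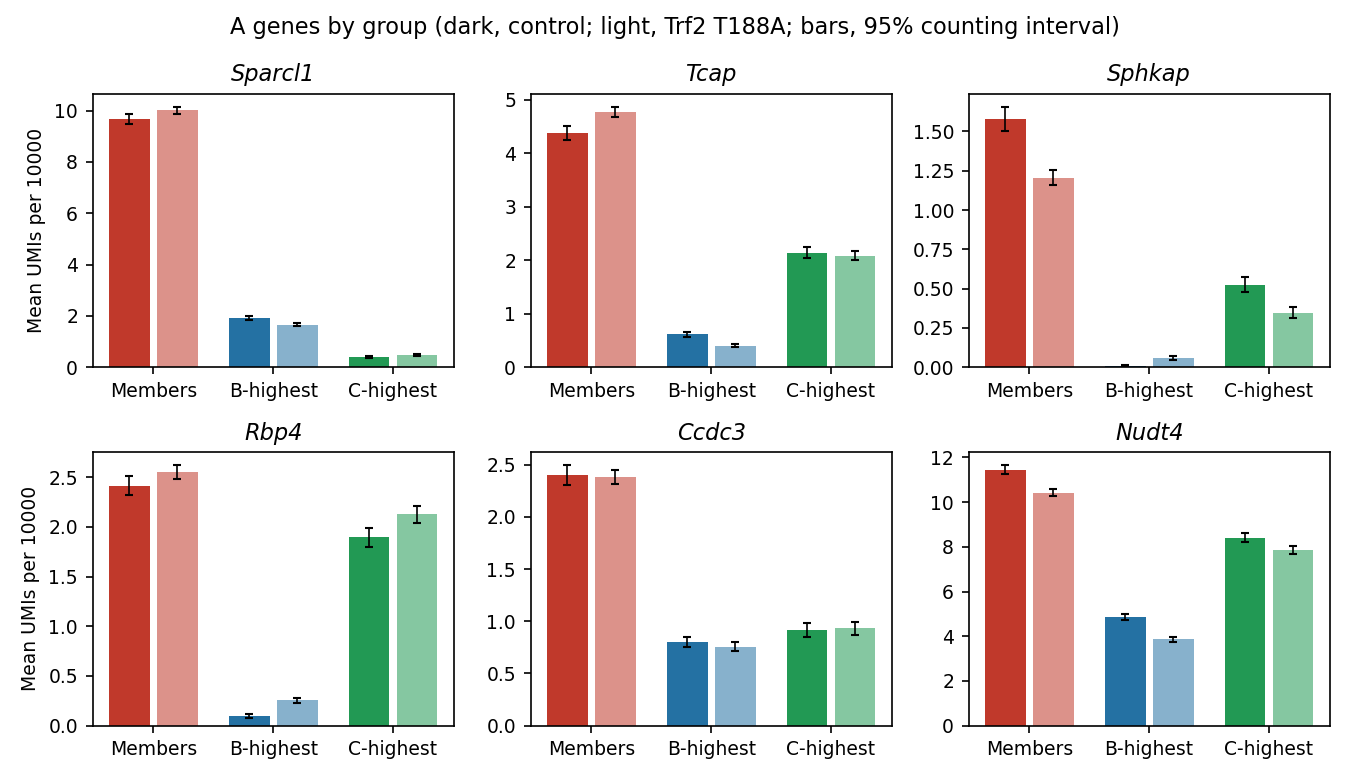
Mean UMIs per 10000 of each A gene in members, B-highest and C-highest cells of the control (dark bars) and *Trf2 T188A* (light bars) libraries, with 95% counting intervals as error bars. *Rbp4* is nearly as high in C-highest cells as in members. *Nudt4* is lower in C-highest cells, at 8.41 and 7.86 against 11.5 and 10.4, and *Sparcl1* is lowest there, at 0.384 and 0.477.

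The A genes were found in most members. A UMI of *Sparcl1* was present in 90.6% and 93.4% of members, of *Tcap* in 85.4% and 89.2%, of *Sphkap* in 56.8% and 55.9%, of *Rbp4* in 67.3% and 75.2%, of *Ccdc3* in 82.8% and 87.5% and of *Nudt4* in 99.4% and 99.8%. Free RNA gives some UMIs in any cell, so 88 immune-marked cells outside the members (a UMI of at least 3 immune genes, median 8627 UMIs) served as a background. There the shares were 12.5% for *Sparcl1*, 10.2% for *Tcap*, 6.82% for *Sphkap*, 10.2% for *Rbp4*, 12.5% for *Ccdc3* and 52.3% for *Nudt4*. At 5000 UMIs per cell the members' shares were 83.9% and 88.8% for *Sparcl1*, 73.0% and 73.1% for *Tcap*, 43.3% and 36.6% for *Sphkap*, and 51.3% and 56.9% for *Rbp4*. They were 66.2% and 65.9% for *Ccdc3* and 98.3% and 98.3% for *Nudt4*. The thinned immune-marked cells had 8.33%, 8.33%, 5.56%, 5.56%, 8.33% and 40.3% in the same order. Members were chosen by these 6 genes, so their higher shares follow from the choice and carry no test. Endothelial-marked cells outside the members (156 cells, median 13309 UMIs) also carried *Sparcl1*, with a UMI in 51.9% of them and a level of 4.61. Their shares were 16.7% for *Tcap*, 7.05% for *Sphkap*, 13.5% for *Rbp4*, 25.6% for *Ccdc3* and 78.8% for *Nudt4*.

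A UMI of all 6 A genes was present in 300 control members (24.7%) and 544 *Trf2 T188A* members (30.8%), against 2 and 19 of the B-highest and 18 and 33 of the C-highest cells. Among all cells of a library, the 15 pairs of A genes had positive Spearman coefficients, with medians of 0.238 in control (4967 cells) and 0.295 in *Trf2 T188A* (5392 cells). Within the members, 12 of 15 pairs in control and 11 of 15 in *Trf2 T188A* were below 0, with medians of −0.103 and −0.0888. Cells of a library share depth, and members were selected on the sum of these genes, so the coefficients describe the selected range and carry no test. The lowest was that of *Sparcl1* with *Rbp4*, at −0.215 (1215 control members) and −0.212 (1765 *Trf2 T188A* members). *Sphkap* and *Ccdc3* had the highest, at 0.1003 and 0.1772. Within the selected range, members with more *Sparcl1* thus tended to have less *Rbp4*.

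The members were next divided by their A z. From members with an A z of 0.5 to 1 (489 and 607 cells) to those at 1.5 or more (309 and 530 cells), *Sparcl1* went from 7.22 to 13.2 in control and from 7.87 to 12.7 in *Trf2 T188A* members, as the score requires. *Acta2* and *Tagln* differed little over the same range. *Acta2*, which encodes smooth muscle actin, went from 171 to 166 in control and from 177 to 180.4 in *Trf2 T188A* members, and *Tagln*, for the actin-binding protein transgelin, from 123 to 123 in control and from 136 to 136 in *Trf2 T188A* members. *Myh11*, for smooth muscle myosin heavy chain, was higher at the high end, from 35.0 to 36.9 in control and from 31.9 to 36.5 in *Trf2 T188A* members. Matrix genes were lower at the high end, *Eln* going from 8.83 to 7.18 in control and from 12.6 to 10.1 in *Trf2 T188A* members and *Sparc* from 25.04 to 20.6 in control and from 22.5 to 19.0 in *Trf2 T188A* members. *Fth1*, for the heavy chain of ferritin, was higher there, from 109.7 to 124 in control and from 113 to 126 in *Trf2 T188A* members.

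The label of these cells as contractile was checked against 18 genes of the contractile apparatus. A gene was counted as higher or lower where its log2 ratio was at least 0.25 in size, with the same sign, in each of the 2 libraries, and where at least 10% of the cells of either group had a UMI. The 21 genes of the scores were left out. The contrasts with B-highest and C-highest cells follow from the scores that chose the cells, so the counts are given beside the share of all genes without a test. Both contrasts share the members and the libraries. Against B-highest cells 1 contractile gene was higher and 6 were lower, where 2.16% of 8615 genes were higher and 1.89% lower. The list had a median log2 ratio of −0.16, against 0.02 over all genes. Against C-highest cells 16 of the 18 genes were higher and 0 were lower, where 3.89% of 8711 genes were higher and 3.36% lower, and the median was 0.77, against 0.02 over all genes. The shares of all genes depend on the pseudocount of 1: with 0.1, 970 genes were higher and 464 lower than in B-highest cells, in place of 186 and 163, and 1329 higher and 896 lower than in C-highest cells, in place of 339 and 293. The summed level of the 18 contractile genes was 602 and 617 in members, 723 and 740.04 in B-highest cells and 331 and 334 in C-highest cells.

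*Acta2* had levels of 169 and 179 in members, 219 and 246 in B-highest and 86.9 and 91.4 in C-highest cells, and *Myh11* had 36.0 and 33.8, 43.3 and 37.2 and 14.9 and 12.8. Members stood between the other groups for both genes. For *Tagln* the levels were 123 and 136 in members, 135 and 140.2 in B-highest and 67.8 and 72.1 in C-highest cells. *Cnn1*, for calponin, which binds actin and restrains myosin, was −0.72 (95% interval, −0.74 to −0.70) against B-highest cells and 1.19 (1.15 to 1.22) against C-highest cells. Smoothelin (*Smtn*), a marker of contractile VSMCs, had 4.85 and 5.11 in members, 4.66 and 4.07 in B-highest and 3.66 and 3.55 in C-highest cells. The 1 contractile gene above B-highest cells was *Mylk*, the myosin light chain kinase, at 0.45 (95% interval, 0.43 to 0.47). The lower genes were *Acta2*, *Cnn1*, *Tpm1*, *Tpm2*, *Ppp1r14a* and *Vcl*, between −0.72 and −0.34. The exception to higher levels against C-highest cells was *Vcl*, for the adhesion protein vinculin, at −0.11, and *Des*, for the filament protein desmin, was at 0.28 on average but below 0.25 in 1 library. The members are thus smooth muscle cells by these markers, with contractile genes above those of C-highest cells and, for 6 of the 18, below those of B-highest cells. They are called *Sparcl1*/*Rbp4* cells here after genes of score A, although *Rbp4* hardly separated them from C-highest cells, at 0.21.

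Genes that govern calcium and relaxation followed. Of 20 genes measured, 2 were higher than in B-highest cells and 0 lower (median 0.09), and 8 were higher than in C-highest cells and 0 lower (median 0.21). *Pln* encodes phospholamban, which holds back the calcium pump of the sarcoplasmic reticulum. It had levels of 1.41 and 1.07 in members, 0.221 and 0.195 in B-highest and 1.09 and 0.645 in C-highest cells, and a log2 ratio of 0.88 (95% interval, 0.85 to 0.92) against B-highest cells. *Kcnma1*, the pore of the large-conductance potassium channel, had 0.586 and 0.628 in members against 0.0731 and 0.0598 and 0.0397 and 0.0562, and was higher than in both other groups. The pump itself, *Atp2a2*, had the highest level of the list on the average of both libraries, with 5.58 and 5.54 in members, 4.90 and 4.25 in B-highest and 4.18 and 3.71 in C-highest cells. The other genes above C-highest cells were *Kcnmb1*, *Gucy1b1*, *Pde3a*, *Pde5a*, *Atp2b4* and *Kcnab1*.

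Partners of the A genes were examined next. Of 17 genes for cAMP signalling and kinase anchoring, the anchoring protein *Akap12* was lower than in B-highest cells, at −0.69, and *Akap6*, *Prkar2a*, *Adcy5* and *Gnas* were higher than in C-highest cells (medians 0.07 and 0.04). *Adcy5*, an adenylyl cyclase, had the highest ratio of the latter, 0.53. Among 18 Z-disc genes, 4 were lower than in B-highest cells (*Csrp1*, *Pdlim1*, *Pdlim7* and *Palld*). Against C-highest cells 5 were higher (*Csrp1*, *Csrp2*, *Ldb3*, *Pdlim3* and *Pdlim7*) and *Fhl2* was lower, with medians of −0.04 and 0.11. *Csrp3* and *Mypn*, of striated muscle, had no UMI in members. Of 18 genes for retinoid handling, *Rarres2* was lower than in B-highest cells, at −0.42. The retinol transporter *Stra6* had no UMI in members. Of 10 genes for inositol phosphates and related nudix enzymes, 6 could be counted against B-highest and 7 against C-highest cells, and 0 were higher or lower. In the SPARC family the relatives of *Sparcl1* went other ways. *Sparc*, for a collagen-binding matrix protein, was lower than in both groups, at 22.6 and 21.04 against 80.9 and 95.3 and 67.4 and 85.8, and *Fstl1* was also lower, while *Smoc1* was 0.83 against B-highest and −0.45 against C-highest cells.

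Matrix genes were examined in 3 lists. Of 12 interstitial collagen genes, 9 were lower than in B-highest cells (median −0.56) and 6 lower than in C-highest cells (median −0.29), and 0 were higher. *Col1a1* had levels of 4.17 and 4.75 in members, 11.7 and 16.4 in B-highest and 20.2 and 26.8 in C-highest cells, and *Col3a1* had 8.78 and 8.61, 20.9 and 32.7 and 20.7 and 30.5. Medians over cells were in the same order, at 3.32 and 3.92, 8.62 and 12.8, and 15.3 and 21.1 for *Col1a1*. Of 16 elastic fibre genes, 8 were lower and 2 higher than in B-highest cells (median −0.38), and 7 were lower and 2 higher than in C-highest cells (median −0.28).

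*Eln*, for tropoelastin, had the lowest ratio to B-highest cells of all genes, −3.05 (95% interval, −3.07 to −3.04). Its levels were 8.22 and 11.5 in members, 68.6 and 113 in B-highest and 27.9 and 57.5 in C-highest cells, and its medians over cells were 5.31 and 8.62, 27.9 and 65.4, and 18.5 and 40.4. *Fbln5* and *Lox*, for a scaffold and a cross-linking enzyme of elastic fibres, were lower than in both groups, at −1.24 and −1.21 against B-highest cells. The genes in the other direction in both contrasts were *Mfap4*, of microfibrils, at 0.48 and 0.66, and *Ltbp1*, which stores latent TGFb in the matrix, at 0.40 and 0.29. Of 13 basement membrane genes, 5 were lower than in B-highest cells (*Col4a1*, *Col4a2*, *Col15a1*, *Nid1* and *Hspg2*; median −0.21). Against C-highest cells *Col15a1* and *Lama4* were higher and *Lamb1* and *Nid1* lower (median −0.03).

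**Figure D3:**
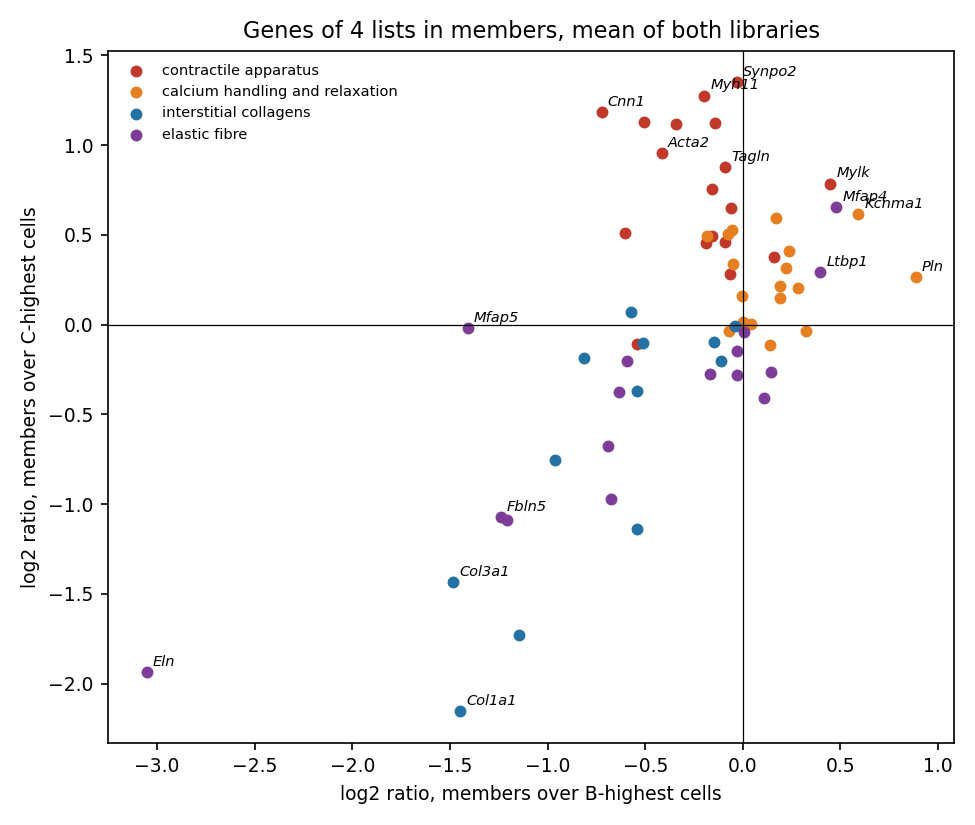
Log2 ratio of each gene in members over B-highest cells (horizontal axis) and over C-highest cells (vertical axis), averaged over both libraries, for contractile, calcium handling, interstitial collagen and elastic fibre genes. The axes share the members. Contractile genes lie above 0 on the vertical axis except *Vcl*, and *Eln*, *Col1a1* and *Col3a1* lie below 0 on both.

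Of 9 de-differentiation genes measured, a list taken from the study, all 9 were lower than in C-highest cells (median −1.13). *Lum*, for a proteoglycan of collagen fibrils, had the lowest ratio of all genes there, −3.61 (95% interval, −3.64 to −3.58), with levels of 0.989 and 0.651 in members and 18.2 and 24.5 in C-highest cells. Against B-highest cells *Fn1*, *Col1a1* and *Col3a1* were lower, and *Mgp* and *Tnfrsf11b* were higher. *Mgp*, an inhibitor of calcification, had 350.1 and 333 in members, 164 and 169 in B-highest and 763 and 737 in C-highest cells, so that members again stood between the groups. Its ratio to B-highest cells was 1.03 (95% interval, 1.03 to 1.04).

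Among 16 redox genes, *Nox4*, *Sod3* and *Fth1* were higher than in both groups. *Nox4* encodes an NADPH oxidase that makes hydrogen peroxide, and its levels were 3.16 and 3.27 in members, 1.93 and 1.65 in B-highest and 1.89 and 1.64 in C-highest cells. *Sod3*, the extracellular superoxide dismutase, had 5.09 and 6.41, 3.93 and 4.25 and 2.83 and 3.61. *Fth1* had 117 and 119.9 in members against 55.5 and 49.9 and 89.6 and 76.6. Its partner *Ftl1*, for ferritin light chain, went the other way against C-highest cells, at −0.94, as did *Hmox1*, *Txnrd1* and *Prdx1*, and *Gpx1* was higher there. The medians of the list were 0.06 and 0.08.

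In the TGFb pathway (16 genes), 3 receptor genes were higher and 2 ligand genes lower than in B-highest cells. The receptors *Tgfbr1*, *Tgfbr2* and *Tgfbr3* were at 0.48, 0.29 and 0.33, and the ligands *Tgfb2* and *Tgfb3* at −1.17 and −0.49 (list median 0.09). *Tgfb2* had levels of 0.927 and 1.01 in members and 3.22 and 3.65 in B-highest cells. Against C-highest cells *Tgfbr1* was higher, and *Smad7*, *Skil* and *Ccn2*, which TGFb signalling induces, were lower (list median −0.06). Of 13 Notch pathway genes, the receptor *Notch3* was lower than in B-highest cells, at −0.33, and the ligand *Jag1* lower than in C-highest cells, at −0.35. Of 15 smooth muscle transcription regulators measured, *Klf4*, which represses contractile genes, was 0.56 against B-highest cells. *Myocd*, the coactivator of contractile genes, was 0.43 and *Gata6* −0.28 against C-highest cells.

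Of 12 senescence genes, *Cxcl1* was lower than in both groups, at −0.61 and −1.10, and *Cdkn1a* and *Icam1* were lower than in C-highest cells. *Cdkn1a*, for the cell cycle inhibitor p21, had 2.68 and 2.51 in members, 2.11 and 2.03 in B-highest and 4.48 and 3.79 in C-highest cells. The level of *Terf2*, the gene for TRF2, was 0.197 and 0.169 in members. Whether transcripts of the transgene were counted as *Terf2* is not given in the sources used here, so it does not check the genotypes. Of 12 proliferation genes only 2 were detected widely enough to be counted, neither of them higher or lower in either contrast, and the summed level of the list was 1.21 and 1.27 in members. Of 18 interferon-stimulated genes, 9 could be counted against B-highest cells, with 0 higher or lower, and 11 against C-highest cells, where *Bst2* was lower, at −0.37.

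Genes that enzymatic digestion is known to induce differed between the groups too. Of 16 such genes, 8 were higher and 3 lower than in B-highest cells (median 0.31), and 2 were higher and 3 lower than in C-highest cells (median −0.14). *Fos* had levels of 46.9 and 45.9 in members, 35.3 and 32.2 in B-highest and 45.2 and 40.4 in C-highest cells. *Nr4a1*, an immediate-early nuclear receptor, had 4.31 and 6.58, 2.14 and 1.78 and 5.09 and 4.69. The heat shock genes *Hspa1a* and *Hspa1b* were among the lower ones, at −1.17 and −0.94 against B-highest cells. The part of digestion in these differences was not tested.

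Among the highest ratios to B-highest cells outside the scores were those of *Fth1*, *Nr4a1*, *Mgp*, *Rspo3*, *Id1*, *Pln*, *Smoc1*, *Camk2n1* and *Id3*, from 1.15 to 0.79. *Rspo3*, a secreted enhancer of Wnt signalling, had 1.95 and 1.61 in members, 0.330 and 0.414 in B-highest and 3.30 and 3.86 in C-highest cells. *Id1* and *Id3* encode inhibitors of basic helix-loop-helix factors, and *Id1* had 9.39 and 11.0 in members and 5.56 and 3.92 in B-highest cells. After *Eln* and *Sparc*, the lowest ratios were those of *Apoe*, *Ppic*, *Col3a1*, *Rgs5*, *Col1a1*, *Fn1*, *Mfap5* and *Fstl1*, from −1.60 to −1.28. *Apoe*, for a lipid carrier, had 1.40 and 1.43 in members, 8.25 and 4.77 in B-highest and 24.0 and 27.1 in C-highest cells. *Fn1*, for fibronectin, had 9.12 and 9.87 against 26.4 and 27.6 in B-highest cells.

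The highest ratios to C-highest cells were those of *Csrp2*, *Synpo2*, *Myh11*, *Dstn*, *Sh3bgr*, *Ccn3*, *Cnn1*, *Vim*, *Pdlim3* and *Ppp1r14a*, from 1.37 to 1.13. Of these, *Synpo2*, *Myh11*, *Cnn1* and *Ppp1r14a* are on the contractile list and *Csrp2* and *Pdlim3* on the Z-disc list. *Csrp2*, a LIM protein of smooth muscle, had 44.4 and 42.2 in members, 42.9 and 43.4 in B-highest and 16.5 and 15.8 in C-highest cells, and *Vim*, for the filament protein vimentin, had 89.1 and 96.8, 106 and 99.5 and 40.4 and 40.7. The lowest ratios were those of *Lum*, *Apoe*, *Dcn*, *Col1a1*, *Eln*, *Sparc*, *Col1a2*, *Col3a1*, *Spp1* and *Rgs5*, from −3.61 to −1.35. *Spp1*, for osteopontin, had 0.708 and 0.898 in members, 0.0469 and 0.0699 in B-highest and 4.60 and 2.88 in C-highest cells.

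Markers of other cell types differed in how far members carried them. The 10 endothelial genes had a summed level of 1.02 and 0.917, most of it *Erg*, against 0.443 and 0.525 in B-highest and 0.744 and 0.832 in C-highest cells. Endothelial-marked were 12 and 17 members (0.988% and 0.963%), against 0.152% and 0.608% of B-highest and 0.194% and 1.24% of C-highest cells. With endothelial-marked and immune-marked cells left out, the shares of members were 24.5% and 33.1% and the contractile medians −0.16 against B-highest and 0.78 against C-highest cells. Between genotypes, 65 genes were then higher and 17 lower in members. The 12 immune genes summed to 0.0429 and 0.0506, with *Cd68* the most abundant and *Cd3e* without a UMI, and 1 and 2 members were immune-marked. The 8 fibroblast and adventitial genes summed to 1.41 and 0.991, mostly *Lum*, against 20.99 and 26.80 in C-highest cells. *Clec3b* and *Dpep1* had no UMI in members, and *Pdgfra*, *Cd34* and *Lum* were lower than in C-highest cells. The 8 pericyte genes summed to 7.76 and 8.18 in members, 10.9 and 10.9 in B-highest and 8.01 and 11.1 in C-highest cells, led in members by *Cspg4*, with *Higd1b* without a UMI. *Rgs5*, a pericyte marker that restrains G protein signalling, was lower than in both groups, at 0.530 and 0.426 in members. *Abcc9* and *Kcnj8*, subunits of a potassium channel, were higher than in B-highest cells, at 0.59 and 0.35, and *Mcam* was lower there. Against C-highest cells *Cspg4* and *Mcam* were higher and *Pdgfrb* lower. Of Schwann and neural genes 7 were measured, summing to 0.0705 and 0.0467, with *Prx* the most abundant and *Sox10* and *Cadm3* without a UMI. Of skeletal muscle genes 8 were measured, summing to 0.0452 and 0.0419, with *Mylpf* the most abundant and *Tnni2* without a UMI. Of 5 erythroid genes only *Alas2* was listed in the tables, without a UMI in members.

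Members were then compared between genotypes. The question was how expression of the TRF2 mutant in VSMCs relates to contractile and de-differentiation genes in the *Sparcl1*/*Rbp4* cells. Of 8408 genes tested, 67 (0.797%) were higher and 17 (0.202%) lower by at least 0.25 in *Trf2 T188A* than in control members, with a median log2 ratio of −0.0022 over all genes. These counts depend on the pseudocount of 1: with 0.1 they were 335 higher and 242 lower. The count of lower genes was also 27 without *Sparcl1* in the score and 8 with means of log values. In B-highest cells, from the same libraries, 1.37% were higher and 0.829% lower, and in C-highest cells 1.04% were higher and 0.486% lower. Of the 18 contractile genes 0 passed in members, with a median of 0.02. *Acta2* was 0.08 (95% interval, 0.07 to 0.09), *Myh11* −0.09 (−0.11 to −0.07) and *Tagln* 0.14 (0.13 to 0.15). The widest were *Ppp1r14a*, which encodes an inhibitor of myosin phosphatase, at 0.23 and *Lmod1*, for an actin nucleator, at −0.22. In B-highest cells *Mylk* and *Synpo2* were lower in *Trf2 T188A* (list median −0.05). In C-highest cells *Mylk* and *Lmod1* were lower (list median −0.0033), and 0 were higher in either group. Whether the groups differ was not tested.

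De-differentiation genes had a median of −0.03 in members, 0.17 in B-highest cells and 0.37 in C-highest cells. In members 2 of the 9, *Lum* and *Dcn*, were lower and 0 higher. *Lum* was −0.27 (95% interval, −0.33 to −0.21) in members and *Dcn*, for another proteoglycan of collagen fibrils, −0.27 (−0.32 to −0.21). In B-highest and C-highest cells *Lum* was 0.71 and 0.41, and *Dcn* 0.45 and 0.38. In most members no UMI of either gene was found, which does not limit how many of them express these genes. A UMI of *Lum* was found in 19.8% and 18.5% and of *Dcn* in 16.2% and 13.7% of members, and both medians over cells were 0. At 5000 UMIs per cell the shares were 15.1% and 11.0% for *Lum* and 12.4% and 8.79% for *Dcn*. The 1% of members with the most *Lum* (13 and 18 cells) held 32.4% and 38.5% of its UMIs. Whether the groups differ in these ratios was not tested.

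Collagen and elastic fibre genes were next. Of the interstitial collagens 0 passed in members (median 0.0024), while 5 were higher in B-highest cells (median 0.13) and 4 in C-highest cells (median 0.17). *Col3a1* was −0.03 (95% interval, −0.06 to 0.01) in members, 0.62 in B-highest and 0.53 in C-highest cells, and *Col1a1* was 0.15, 0.46 and 0.39. Of the elastic fibre genes, *Eln* and *Mfap5* were higher in *Trf2 T188A* members (median −0.0089), against 6 genes in each of the other groups (medians 0.20 and 0.13). *Eln* was 0.44 (95% interval, 0.41 to 0.47) in members, 0.72 in B-highest and 1.02 in C-highest cells. A UMI of *Eln* was found in 91.8% and 97.8% of members, and in 84.4% and 93.9% at equal depth. The difference between the groups was not tested.

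**Figure D4:**
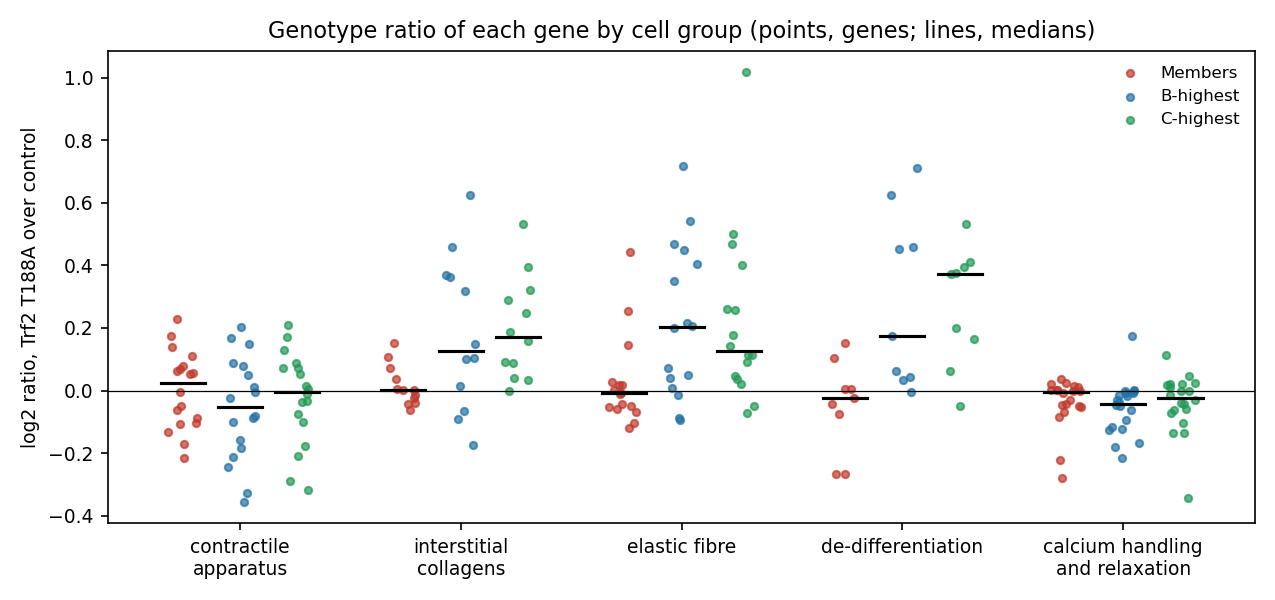
Log2 ratio of *Trf2 T188A* over control cells for each gene of 5 lists (points) with the list medians (lines), in members, B-highest and C-highest cells of the same 2 libraries. De-differentiation medians are −0.03 in members, 0.17 in B-highest and 0.37 in C-highest cells, and contractile medians lie between −0.05 and 0.02.

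Among the highest genotype ratios in members were those of *Nr4a1*, *S100a4*, *Rpl27*, *Ost4*, *Cox6c*, *Rps10*, *Sost*, *Ndufa1* and *Eln*, from 0.51 to 0.44. Among them were genes of the ribosome (*Rpl27*, *Rps10*) and the respiratory chain (*Cox6c*, *Ndufa1*), and lists of such genes were added after their values had been seen. Of 85 ribosomal protein genes 13 were higher (median 0.05), of 16 mitochondrially encoded genes 5 (median 0.13), and of 88 nuclear respiratory chain genes 15 (median 0.11), with 0 lower. Their medians were similar in the other groups, 0.07, 0.07 and 0.09 in B-highest and 0.08, 0.14 and 0.12 in C-highest cells. Genes outside these lists made up 34 of the 67 higher genes and all 17 lower ones. The *Trf2 T188A* library was also deeper and had a higher median mitochondrial share in members, 2.07% against 1.93%, and their part in these ratios was not tested.

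*Nr4a1*, *Sost* and *S100a4* had smaller or opposite ratios in the other groups. *Ost4* did not, at 0.47 in members, 0.52 in B-highest and 0.47 in C-highest cells, and the ratio of *Eln* was larger in both other groups. *Nr4a1* had levels of 4.31 and 6.58 in members, a ratio of 0.51 (95% interval, 0.47 to 0.55), against −0.17 in B-highest and −0.10 in C-highest cells. *Sost*, for the Wnt inhibitor sclerostin, had levels of 12.05 and 16.9 in members, a ratio of 0.46 (0.43 to 0.48), against −0.09 and −0.13. *S100a4*, for a calcium-binding protein, had 5.24 and 7.81, a ratio of 0.50 (0.46 to 0.54), against −0.11 and 0.19. These differences between groups were not tested.

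The lowest ratios were those of *Atf5*, *CT010467.1*, *Mir6236*, *Actb*, *Neat1*, *Jun*, *Lars2*, *Fosb*, *Gadd45b* and *Palld*, from −0.61 to −0.28. *Atf5*, a stress-responsive transcription factor, had levels of 2.29 and 1.16 and a ratio of −0.61 (−0.66 to −0.56), against −0.35 in B-highest and −0.05 in C-highest cells. *Actb*, for cytoplasmic actin, and *Neat1*, a nuclear long non-coding RNA, were lower in all 3 groups. *Actb* was −0.41 in members, −0.56 in B-highest and −0.52 in C-highest cells. *Jun* and *Fosb* belong to the digestion-induced genes, of which *Nr4a1* alone was higher in *Trf2 T188A* members (list median −0.06). Further genes past the limit were *Gucy1a1*, a subunit of the nitric oxide receptor, at −0.28, *Ccn2* at −0.27, *Sod3* at 0.28 and *Mcam* at 0.27.

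The medians of the remaining lists in members lay near that of all genes. They were −0.03 for transcription regulators, −0.0047 for calcium handling, −0.0022 for kinase anchoring, 0.0016 for Z-disc genes and 0.0003 for retinoid handling. They were −0.01 for the SPARC family, 0.0009 for nudix and inositol phosphate genes, 0.0022 for basement membrane, −0.0067 for senescence and −0.04 for the TGFb pathway. The Notch pathway had 0.0025, redox genes 0.02, interferon-stimulated genes −0.02 and proliferation genes 0.0007. The A genes, which chose the members, ranged from −0.23 for *Sphkap* to 0.10 for *Tcap*.

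The scores were then applied to plaques, with z over both plaque libraries, to choose plaque members, B-highest and C-highest cells by the same limits. The *ApoE-/-* library held 1502 cells with 37869934 UMIs and a median of 22765.5 UMIs per cell, and the *Trf2 T188A/ApoE-/-* library held 929 cells with 24064570 UMIs and a median of 24377. There were 469 plaque members in the *ApoE-/-* library, 31.2% of its cells (28.9 to 33.6%), and 219 in the *Trf2 T188A/ApoE-/-* library, 23.6% of its cells (20.9 to 26.4%). The order of the genotypes was thus opposite to that after ligation. Cells in plaques had been kept by the authors for expression of the reporter, so the experiments differ in tissue, diet, genotype and selection.

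The A genes chose the plaque members too, so their levels there follow from the score. In plaque members, *Sparcl1* had levels of 10.2 and 10.3, against 3.98 and 3.86 in B-highest and 1.18 and 1.12 in C-highest cells of the plaques, with *ApoE-/-* given first. *Rbp4* had 4.36 and 4.70, 1.93 and 2.05 and 1.56 and 1.34, and *Tcap* 2.04 and 1.98, 0.552 and 0.461 and 0.445 and 0.537. The contractile list had medians of 0.13 and 0.18 against B-highest and of 2.08 and 2.12 against C-highest cells, so that plaque members were above both groups by the list's median. *Acta2* had 159 and 171 in plaque members, 149 and 156 in B-highest and 19.4 and 20.0 in C-highest cells. *Eln* had 13.1 and 15.6, 21.8 and 31.4 and 6.34 and 12.5, above C-highest cells, unlike after ligation.

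Of the 10 genes with the highest ratio to B-highest cells after ligation, 7 were higher in both plaque libraries, where 37.1% of 10842 genes were. *Fth1* and *Mgp* were among the others. Of the 10 lowest, 8 were lower in both, where 28.4% of genes were, the others being *Rgs5* and *Apoe*, the latter a gene these mice carry as a null allele. Of the 10 highest against C-highest cells, all 10 were higher in both plaque libraries, where 48.0% of 11421 genes were. Of the 10 lowest, 8 were lower in both, where 34.3% were, the others being *Eln* and *Rgs5*. The 8 include *Apoe*, at −0.16 and −0.17, whose null allele limits what its ratio can mean. *Fth1* had 112 and 107 in plaque members against 129 and 133 in B-highest cells, and *Mgp* had 139.8 and 143 against 161 and 166. Between plaque genotypes the contractile list had a median of −0.0083 in plaque members and the de-differentiation list 0.10, with *Lum* at 0.75, *Dcn* at 0.25 and *Eln* at 0.24. The mitochondrially encoded genes had a median of −0.42 there, against 0.13 after ligation.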

How the data were processed

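The deposited values of the authors were used as the signal, in UMIs of a gene per 10000 UMIs of its cell, on a linear scale. All 45865994 values above 0 (100%) returned UMI counts within 0.01 of a whole number, with a largest deviation of 0.00139. The sample labels name Cell Ranger 6.1.2 and Seurat 3.2.1 for ligation and Cell Ranger 7.0.0 and Seurat 4.3.0 for plaques, whereas the study's methods name Seurat 4.3.0 for both. Scripts ran in Python 3.11.15 with matplotlib 3.10.9, pandas 2.3.3, scipy 1.17.1 and numpy 2.4.6. The members and the gene lists were chosen with earlier results of these data known.

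A level is the mean over cells, and a log2 ratio is log2((mean 1 + 1)/(mean 2 + 1)), averaged over the 2 libraries for contrasts between groups. Intervals of ratios are delta-method 95% intervals. Genes named first are among the 10 at each end of each comparison among genes past the limit, and further genes are from lists. Thinning drew 5000 UMIs per cell with seed 1, leaving out 66 and 24 members with fewer. The ratio and its limit were tested on simulated data. No paired analysis was possible because each genotype has 1 library.

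The libraries differ in depth, and their mice, handling and genotype cannot be told apart. The A, B and C groups are ranges of scores, so contrasts among them describe the choice. The plaque cells came from other mice, tissue and diet. Doublets and free RNA were not modelled here. No result was tested across mice. RNA levels do not give protein, contraction or position in the wall.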

Additional observations from a re-analysis of the deposited data

Results flagged for a closer look

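*Lum* had a log2 ratio of *Trf2 T188A* over control of −0.27 in members, against 0.71 in B-highest cells and 0.41 in C-highest cells of the same libraries. In plaque members the ratio was 0.75. These differences were not tested.

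*Dcn* had a ratio of −0.27 in members, against 0.45 in B-highest cells, 0.38 in C-highest cells and 0.25 in plaque members. These differences were not tested. *Lum* and *Dcn* were found in a minority of members, with a UMI in 19.8% and 18.5% (*Lum*) and in 16.2% and 13.7% (*Dcn*) of control and *Trf2 T188A* members.

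*Nr4a1* had a ratio of 0.51 in members after ligation and of −0.28 in plaque members. The difference was not tested.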

How the results depend on the processing

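Each result was computed again with other settings. The share of members was higher in *Trf2 T188A* than in control cells in every setting. Values outside the interval or margin of the main setting follow, and the cause was not tested.

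The share of members in control (main 24.5%) was 31.0% with a limit of 0 on z, 14.6% with a limit of 1 and 26.3% with z within each library. In *Trf2 T188A* cells (main 32.7%) it was 39.0%, 21.5% and 30.7%, and it was 29.3% without *Sparcl1* in the score and 30.7% with cells thinned to 5000 UMIs. With members left out whose B z or C z was also at least 0.5, a setting chosen after seeing the data, the shares were 21.6% and 29.0%.

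The contractile median against B-highest cells (main −0.16) was −0.21 without *Sparcl1*, −0.13 without a limit for the other groups, −0.18 with a pseudocount of 0.1, −0.14 with summed UMIs, −0.14 with means of log values, −0.21 in the control library alone and −0.13 in the *Trf2 T188A* library alone. Against C-highest cells (main 0.77) it was 0.69 with a limit of 0, 0.89 with a limit of 1, 0.74 with thinned cells, 0.74 without a limit for the other groups, 0.87 with a pseudocount of 0.1, 0.87 with means of log values, 0.70 in the control library alone and 0.84 in the *Trf2 T188A* library alone. Between genotypes in members (main 0.02) it was 0.04 with each gene scored as z, 0.04 without *Sparcl1*, 0.05 with summed UMIs and 0.05 with means of log values. The de-differentiation median between genotypes (main −0.03) lay between −0.05 and 0.01 in all settings, with 0.01 in thinned cells, so its sign depends on the setting.

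With a pseudocount of 0.1, 970 genes were higher and 464 lower than in B-highest cells, 1329 and 896 against C-highest cells, and 335 and 242 between genotypes. In the *Trf2 T188A* library alone, 326 were higher and 247 lower than in B-highest cells. Genes lower in *Trf2 T188A* members (main 17) were 27 without *Sparcl1* and 8 with means of log values.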

Other observations

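Of 3329 ligation cells with an A z of at least 0.5, 349 (10.5%) had another score as the highest and were not members, 176 (12.7%) in control and 173 (8.93%) in *Trf2 T188A*.

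The 2666 ligation cells in none of the 3 groups (1406 control, 1260 *Trf2 T188A*) had fewer UMIs than the members, with medians of 7990.5 and 10227. Endothelial-marked cells were 65 (4.62%) and 66 (5.24%) of them, and immune-marked cells 18 (1.28%) and 54 (4.29%).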
